A study of Mus musculus with 32 samples.

Results

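The liver of male mice that carry a Dll1 mutation and were made by nuclear transfer was compared with the liver of conventionally bred mice of that mutant line. The comparison holds the 8 arrays titled as cloned Dll1 against the Dll1 reference in liver, which are 8 of the 32 arrays of the series. They come from 4 cloned mice with 2 arrays each. On 1 array of a mouse its RNA was labelled with the dye Cy5 and the pool with Cy3, and on the other the dyes were exchanged. The second channel always held 1 pool of liver RNA from conventional males of that line, labelled as Dll1 heterozygotes. Clones and pool are of the strain 129/SvJ and 18 to 19 weeks old. The mutation itself is thus on both sides of every ratio. For the clones the genotype is given only as Dll1 cloned, and neither the donor cell nor the number of founder cell lines is given in the sources used here. The label protocol speaks of 6 animals in the pool, and the labels name 4 mouse identifiers. Because all 4 clones met the same pool, the spread between conventional animals does not enter any test. For comparison serve the livers of 4 cloned wildtype males of that strain and age against a pool of conventional wildtype males (8 arrays), and the spleens of the same 4 Dll1 clones against a Dll1 pool (8 arrays).

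In nuclear transfer the nucleus of a body cell is placed in an egg without its own nucleus, and the egg has to reset the chromatin of that nucleus for development to start. Cloned mammals have been studied for incomplete resetting, with imprinted genes and chromatin marks as the classic readouts. Dll1 encodes delta-like 1, a ligand in the membrane of 1 cell that activates Notch receptors on its neighbour. After binding, gamma-secretase cuts the receptor and its intracellular part drives target genes such as those of the Hes and Hey families. In liver the Notch pathway is known for its role in forming bile ducts. Most liver RNA comes from hepatocytes, which secrete albumin, clotting factors and acute phase proteins and carry out urea synthesis, bile acid synthesis and drug metabolism.

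Each value is a log2 ratio of the 2 channels of an array, so that 1 unit is a factor of 2. The direction is likely clone over pool, from the word order of the titles, and the other direction would exchange higher and lower throughout. The ratios of the arrays with the clone in Cy3 were read as already turned to that direction, which the sources used here do not settle. Results with these arrays turned are therefore given as well. An array gave values for 20506 to 20690 of 20794 rows, with medians between -0.06 and 0.031. The 4 arrays with the clone in Cy5 correlated with each other at 0.050 to 0.241 over all features. The Cy3 arrays of mice 1 to 3 correlated at 0.364 to 0.435, while the Cy3 array of mouse 4 correlated with them at only 0.080 to 0.097 and stood apart. The 2 arrays of a mouse correlated at -0.194 to -0.012. Features are 8957 named genes and 7959 rows without a name, 16916 in all, and the median SD of a feature between the 4 mice was 0.109. The gene names rest on a shift of 11 rows between values and platform table, and with 4 mice the precision is limited by their number. The spread between the mice was the error of the tests against the pool, wildtype liver and spleen, and no litters are named.

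Dll1, the gene that defines the line, was measured by 2 probes. Its log2 ratios with the clone in Cy5 and in Cy3 were 0.01 and 0.20 in mouse 1, -0.096 and 0.27 in mouse 2, -0.46 and -0.56 in mouse 3 and -0.25 and 0.30 in mouse 4. Mouse 3 was low on both arrays, mouse 1 lay above 0 on both, and mice 2 and 4 had 1 array on each side of 0. The mean of the 4 mice was -0.075 ± 0.29 (SD, n = 4), with an unadjusted p of 0.513 and an adjusted p of 0.883 (limma with Benjamini-Hochberg adjustment over all features), and without mouse 3 it was 0.07. The probes averaged -0.006 and -0.144. Since clone and pool are of 1 line, this ratio does not check the genotype.

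The Notch pathway around Dll1 showed a median at the centre of all features. Of 33 measured genes, 16 lay under 0, with a median of 0, beside a median of -0.003 over all features, of which 51.9% lay under 0. At an unadjusted p under 0.05, 2 of the 33 were lower and 1 was higher, and 0 passed after adjustment. Over all features 3.74% were lower and 1.97% higher at that threshold. Aph1a and Ncstn, which both encode subunits of gamma-secretase, were the 2 lower genes, at -0.12 ± 0.037 (SD, n = 4) and -0.16 ± 0.14 (SD, n = 4). Aph1a was under 0 in 4 of 4 mice and Ncstn in 3 of 4. The higher gene was Dll3, a divergent ligand that does not activate Notch in neighbouring cells. Its log2 ratios were -0.53 and 1.92 in mouse 1, 1.68 and no value in mouse 2, 2.04 and 0.38 in mouse 3 and 0.79 and 1.63 in mouse 4. Mouse 2 was left out of its mean, 1.04 ± 0.30 (SD, n = 3), because 1 of its arrays gave no ratio. Among the remaining 7 arrays the values ran from -0.53 to 2.04, and mouse 1 had opposite signs on its 2 arrays. The medians of the pathway by mouse were -0.032, -0.036, -0.045 and 0.022.

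No feature passed the test against the pool after adjustment: 0 of 16916 features (0%) had an adjusted p under 0.05 by limma, and the smallest was 0.788. At an unadjusted p under 0.05 there were 966 features, 632 lower (3.74%) and 334 higher (1.97%). Turning the Cy3 arrays gave 19 features after adjustment (0.112%) and 3921 before it. That reading takes the difference of the orientations, so a gene with like values in both comes out near 0. After centring each array on its median the unadjusted count was 480 lower and 430 higher, so that the split between lower and higher moved with the centring of the arrays. The genes below are those of smallest p in each direction and the leading genes of each list, and none of them passed after adjustment (adjusted p 0.788 or above).

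Fgl1, which encodes a fibrinogen-like protein secreted by hepatocytes, was the named gene of smallest p. Its log2 ratios, with the clone in Cy5 first and in Cy3 second, were -0.46 and -0.68 in mouse 1, -0.37 and -0.47 in mouse 2, -0.43 and -0.47 in mouse 3 and -0.49 and -0.27 in mouse 4. All 8 arrays lay under 0, and the 2 orientations overlapped. The mean of the mice was -0.45 ± 0.083 (SD, n = 4), with an unadjusted p of 6.78e-05. In wildtype clones the same gene lay at -0.30 ± 0.12 (SD, n = 4). The ratio in Dll1 clones minus that in wildtype clones, each to its own pool, was -0.16 ± 0.074 (SE, unadjusted p = 0.0606 and adjusted p = 0.934 by limma).

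Fbxo41, which encodes an F-box protein, had the next smallest p. Its log2 ratios were -0.83 and -0.65 in mouse 1, -0.53 and -0.45 in mouse 2, -0.30 and -0.74 in mouse 3 and -0.15 and -0.62 in mouse 4. All arrays were low here too, most in mouse 1 and least in mouse 4 with the clone in Cy5. The mean was -0.53 ± 0.15 (SD, n = 4), and wildtype clone liver had a nearly equal -0.58 ± 0.15 (SD, n = 4).

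Lrpprc, a regulator of mitochondrial mRNA stability, gave -0.59 and -0.35 in mouse 1, -0.25 and -0.21 in mouse 2, -0.34 and -0.38 in mouse 3 and -0.12 and -0.25 in mouse 4. Its mean was -0.31 ± 0.13 (SD, n = 4), with every array under 0, while wildtype clone liver lay at 0.009 ± 0.14 (SD, n = 4). For Lrpprc the ratio in Dll1 clones minus that in wildtype clones was -0.32 ± 0.089 (SE, unadjusted p = 0.00483 by limma). It did not pass after adjustment (0.934). Dhx58, an RNA helicase of the antiviral RIG-I family, gave -0.32 and -0.41 in mouse 1, -0.29 and -0.15 in mouse 2, -0.20 and -0.28 in mouse 3 and -0.36 and -0.22 in mouse 4. Its mean was -0.28 ± 0.063 (SD, n = 4), again with 8 of 8 arrays under 0. Timm8b, a chaperone of mitochondrial protein import, had a mean of -0.27 ± 0.097 (SD, n = 4), and its arrays ran from -0.44 to -0.14.

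Others with all 8 arrays under 0 were Il10, the cytokine interleukin-10, at -0.22 ± 0.069 (SD, n = 4), Elmo2, an activator of cell motility signalling, at -0.28 ± 0.12 (SD, n = 4), and Gng13, a G protein subunit, at -0.25 ± 0.096 (SD, n = 4). Cth, which makes cysteine from cystathionine, lay at -0.39 ± 0.21 (SD, n = 4) and was under 0 on 7 of 8 arrays. For some genes of small p the 2 orientations did not match. Casp9, an initiator of cell death, had a mean of -0.36 ± 0.18 (SD, n = 4), made of 0.054 with the clone in Cy5 and -0.78 with it in Cy3. Cfdp1, a chromatin protein, read -1.59 in mouse 1 with the clone in Cy5 and 0.29 on the other array of that mouse. Dact1, a regulator of Wnt signalling, lay at -0.54 ± 0.19 (SD, n = 3), with 6 of 7 arrays under 0. Sumo3, a protein modifier, was measured in 3 mice at -0.56, -0.65 and -0.37, with 5 of 7 arrays under 0.

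**Figure D1:**
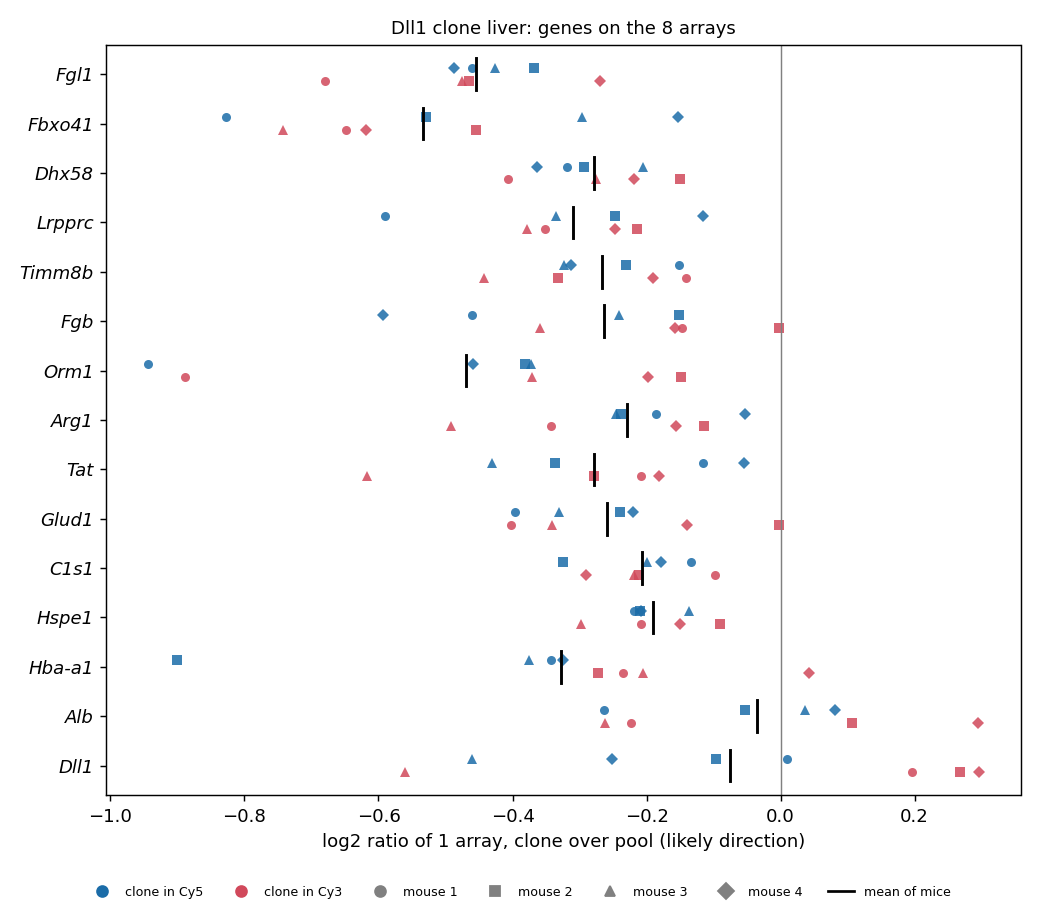
Log2 ratio (likely clone over pool, x axis) of 15 genes on each of the 8 arrays, blue with the clone in Cy5 and red with it in Cy3, symbols by mouse, black bars for the mean of the 4 mice. Fgl1 to Hspe1 have all 8 arrays under 0, Hba-a1 has 7, and Alb and Dll1 spread over both sides of 0.

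A stricter reading is the sign on all 8 arrays, which uses both dye orientations of every mouse. For a gene of several probes it is the sign of their average on an array, and single probes can differ. Of 16732 features with all 8 values, 161 (0.962%) were under 0 on every array and 50 (0.299%) above it. Among the 8869 named genes of this set there were 90 and 23, and in all 211 features (1.26%) had 1 sign. With the Cy3 arrays turned, 564 and 647 features had 1 sign on all arrays, more than as deposited. How many features would have 1 sign by chance was not tested, so the sign alone does not set a gene apart. Of the named genes lower on all 8 arrays, the largest mean sizes were those of Ptges, Alas1, Fbxo41, Orm1, Fgl1 and Lrpprc. Ptges, the terminal enzyme of prostaglandin E2 synthesis, had log2 ratios of -0.64 and -1.47 in mouse 1, -1.31 and -1.63 in mouse 2, -0.30 and -0.046 in mouse 3 and -0.29 and -0.10 in mouse 4. It was low in mice 1 and 2 and nearer to 0 in mice 3 and 4. Alas1, the rate-limiting enzyme of haem synthesis, gave -0.16 and -0.34 in mouse 1, -0.095 and -0.31 in mouse 2, -0.43 and -0.47 in mouse 3 and -0.11 and -2.60 in mouse 4, so that the mean of -0.56 ± 0.54 (SD, n = 4) leans on 1 array of mouse 4, the one that stood apart from the other Cy3 arrays. Without mouse 4 the mean of Alas1 was -0.30.

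Fewer genes lay above 0 on all arrays. Car13, a cytosolic carbonic anhydrase, gave 0.26 and 0.15 in mouse 1, 0.099 and 0.11 in mouse 2, 0.20 and 0.12 in mouse 3 and 0.12 and 0.25 in mouse 4, with a mean of 0.17 ± 0.043 (SD, n = 4). All of its arrays lay above 0 within a narrow range. Tsr1, a factor of small ribosomal subunit assembly, lay at 0.16 ± 0.075 (SD, n = 4), Spata17, a testis-associated gene, at 0.15 ± 0.041 (SD, n = 4), Tinf2, a telomere protein, at 0.17 ± 0.18 (SD, n = 4) and Chpt1, which makes phosphatidylcholine, at 0.14 ± 0.11 (SD, n = 4), each above 0 on 8 of 8 arrays. For Tinf2 this holds only for the average of its probes. They averaged 0.272, 0.063 and 0.173, each had arrays under 0, and the first read 2.26 on the Cy5 array of mouse 2. Rnf32, which encodes a RING finger protein, had mice close together, at 0.16, 0.15, 0.21 and 0.19, though its Cy5 arrays were all higher than its Cy3 arrays. Ptpn5, a phosphatase of neurons, had the largest mean among named genes above 0 on all 8 arrays, 0.20 ± 0.08 (SD, n = 4). Its 2 probes averaged -0.068 and 0.462. Srr and Bace2 had small p with arrays on both sides of 0. Srr, which makes D-serine, gave 1.35 and -1.01 in mouse 1, 0.30 and 0.16 in mouse 2, 0.017 and 0.63 in mouse 3 and -0.62 and 1.17 in mouse 4, with a mean of 0.25 ± 0.067 (SD, n = 4). The Srr probe with values on all 8 arrays averaged only 0.072. The larger values came from a probe measured on 5 of the 8 arrays, between -1.99 and 2.57. Bace2, a protease, gave 0.33 and 0.92 in mouse 1, 3.12 and -0.32 in mouse 2, -0.098 and 1.22 in mouse 3 and -0.032 and no value in mouse 4, with a mean of 0.86 ± 0.47 (SD, n = 3) in which 1 array of mouse 2 stands far above the rest. Ran, the GTPase of nuclear transport, shows how an average can hide the orientations. Its 4 mice lay at 0.14, 0.26, 0.22 and 0.16, but its Cy5 arrays averaged -0.26 and its Cy3 arrays 0.65. Rpl19, a protein of the large ribosomal subunit, had 3 mice at 0.68, 1.23 and 1.96, with 7 of 7 measured arrays above 0. Its 1 probe scattered widely in wildtype clone liver, with 3 mice at 1.98, -0.24 and -1.67. Thyn1, a nuclear protein, had a mean of 0.71 ± 0.41 (SD, n = 4), but its probe with values in all 4 mice averaged only 0.082, and the larger values came from a probe measured on 6 of the 8 arrays, between 0.33 and 3.76. Renbp, which binds renin, had 2 probes that averaged 0.439 and -0.008.

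Genes that mark hepatocytes lay lower as a group. All 19 of the 19 measured hepatocyte genes had means under 0, from -0.28 to -0.016, with a median of -0.11, beside a median of -0.003 and 51.9% under 0 over all features. At an unadjusted p under 0.05, 6 of them were lower and 0 higher, and 0 passed after adjustment. The shares over all features were 3.74% lower and 1.97% higher at that threshold, also for the lists below. The list's medians in mice 1 to 4 were -0.20, -0.024, -0.17 and -0.062, and by orientation -0.10 with the clone in Cy5 and -0.12 with it in Cy3. With the Cy3 arrays turned the median was -0.002. In bulk tissue, fewer cells of a type and less RNA per cell cannot be told apart.

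The leading hepatocyte genes were Fgb, Arg1 and Tat. Fgb, the fibrinogen beta chain, gave -0.46 and -0.15 in mouse 1, -0.15 and -0.002 in mouse 2, -0.24 and -0.36 in mouse 3 and -0.59 and -0.16 in mouse 4, with a mean of -0.26 ± 0.13 (SD, n = 4). Every array was under 0, although the Cy3 array of mouse 2 was at the pool's level. Arg1, the last enzyme of the urea cycle, gave -0.19 and -0.34 in mouse 1, -0.24 and -0.11 in mouse 2, -0.25 and -0.49 in mouse 3 and -0.053 and -0.16 in mouse 4, with a mean of -0.23 ± 0.11 (SD, n = 4). Tat, which starts tyrosine breakdown, gave -0.12 and -0.21 in mouse 1, -0.34 and -0.28 in mouse 2, -0.43 and -0.62 in mouse 3 and -0.054 and -0.18 in mouse 4, with a mean of -0.28 ± 0.18 (SD, n = 4), and mouse 3 was the lowest on both arrays. Some major secreted proteins lay nearer to 0. Alb, serum albumin, lay at -0.035 ± 0.18 (SD, n = 4), with 2 mice on each side of 0 and a mean of 0.034 without mouse 1. Ttr, the thyroxine carrier transthyretin, lay at -0.062 ± 0.10 (SD, n = 4).

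For 2 of these genes the 250 bases before the transcription start are shown, from RefSeq on GRCm38.p6, because they lay under 0 on all 8 arrays. Arg1 lay under 0 on all 8 arrays too, but the promoter source used here held no entry for it. The window of Fgb is chr3:83049864-83050113 on the minus strand and that of Tat chr8:109990186-109990435 on the plus strand. Capitals mark matches to motifs of 2 transcription factor families known from acute phase genes.
Fgb: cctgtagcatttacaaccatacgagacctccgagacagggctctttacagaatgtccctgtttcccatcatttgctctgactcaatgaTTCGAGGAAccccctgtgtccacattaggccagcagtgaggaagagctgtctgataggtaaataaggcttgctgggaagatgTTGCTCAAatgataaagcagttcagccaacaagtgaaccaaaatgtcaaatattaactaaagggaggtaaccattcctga
Tat: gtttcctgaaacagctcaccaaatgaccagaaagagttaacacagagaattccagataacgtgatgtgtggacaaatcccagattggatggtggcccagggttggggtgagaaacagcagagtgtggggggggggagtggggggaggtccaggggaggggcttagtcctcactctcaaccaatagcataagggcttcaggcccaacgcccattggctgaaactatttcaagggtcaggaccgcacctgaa
The motifs searched on both strands were TTCNNNGAA, a STAT3 motif, TTGCNNAA, a C/EBP motif, and a motif of HNF1. Fgb held 1 match to the STAT3 motif and 1 to the C/EBP motif, which do not overlap, and 0 to the HNF1 motif. Tat held 0 matches to the 3 motifs. Of all 32851 RefSeq windows of 250 bases, 7.02% held the STAT3 motif, 9.56% the C/EBP motif and 0.371% the HNF1 motif. A match describes the letters only.

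Acute phase genes, whose products hepatocytes secrete during inflammation, lay lower by a similar amount. Of 24 measured genes 20 lay under 0, with a median of -0.11. At an unadjusted p under 0.05, 9 were lower and 0 higher (3.74% and 1.97% over all features), with 0 after adjustment. The medians of the mice were close to each other, at -0.11, -0.10, -0.092 and -0.079. The orientations gave -0.12 in Cy5 and -0.11 in Cy3, and the turned reading -0.022. Besides Fgl1 and Fgb this list was led by Orm1, an acid glycoprotein of plasma. Orm1 gave -0.94 and -0.89 in mouse 1, -0.38 and -0.15 in mouse 2, -0.37 and -0.37 in mouse 3 and -0.46 and -0.20 in mouse 4. Mouse 1 lay far below the others on both arrays, and the mean was -0.47 ± 0.30 (SD, n = 4).

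The clotting and complement lists lay nearer to 0. Of the coagulation genes 15 of 18 lay under 0, with a median of -0.06. At an unadjusted p under 0.05, 4 were lower and 0 higher (3.74% and 1.97% over all features). Fga, the fibrinogen alpha chain, lay at -0.24 ± 0.15 (SD, n = 4) and F2, prothrombin, at -0.19 ± 0.16 (SD, n = 4). Some genes belong to more than 1 list, as Fgb does. Of the complement genes 12 of 14 lay under 0, with a median of -0.051 and 1 lower and 0 higher. That gene was C1s1, a protease that starts the classical pathway, with log2 ratios of -0.13 and -0.098 in mouse 1, -0.33 and -0.21 in mouse 2, -0.20 and -0.22 in mouse 3 and -0.18 and -0.29 in mouse 4. Its 8 arrays lay close together, with a mean of -0.21 ± 0.065 (SD, n = 4).

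In metabolism the amino acid genes held the most members of small p. Of 20 genes of the urea cycle and amino acid breakdown, 16 lay under 0, with a median of -0.05. At an unadjusted p under 0.05, 8 were lower and 0 higher (3.74% and 1.97% over all features). Glud1, glutamate dehydrogenase, gave -0.40 and -0.40 in mouse 1, -0.24 and -0.003 in mouse 2, -0.33 and -0.34 in mouse 3 and -0.22 and -0.14 in mouse 4, with a mean of -0.26 ± 0.13 (SD, n = 4). All arrays lay under 0, the Cy3 array of mouse 2 by the least. Cth and Arg1, given above, led the list with it. The medians of cytochrome P450 genes in mice 1 to 4 were -0.19, 0.033, -0.17 and 0.013, so that mice 1 and 3 were low and mice 2 and 4 were not. Over the 4 mice 11 of 16 lay under 0, with a median of -0.072 and 4 lower and 0 higher. Cyp4f14, which breaks down leukotrienes, lay at -0.18 ± 0.055 (SD, n = 4) and Cyp2a12, a steroid hydroxylase, at -0.23 ± 0.16 (SD, n = 4), both under 0 on 8 of 8 arrays. With the Cy3 arrays turned, the medians were 0.016 for coagulation, 0.038 for complement, 0.028 for amino acid and 0.009 for cytochrome P450 genes.

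Fatty acid and cholesterol genes had medians closer to the pool, while those of bile acid and sugar genes were near those of the amino acid and complement lists. The medians were -0.003 for 21 genes of fatty acid and triglyceride synthesis, 0 for 19 of fatty acid oxidation, 0.029 for 12 of cholesterol synthesis, -0.04 for 10 of bile acid metabolism and -0.047 for 14 of glucose output and glycolysis. Of the bile acid genes 9 of 10 lay under 0, with medians in mice 1 to 4 of -0.044, -0.022, -0.072 and -0.049. At an unadjusted p under 0.05, 1 of them was lower and 0 higher (3.74% and 1.97% over all features). Of the sugar genes 9 of 14 lay under 0, with 2 lower and 0 higher. In fatty acid oxidation Acaa1b, a peroxisomal thiolase, was the 1 higher gene at an unadjusted p under 0.05, with mice at 0.35, 0.46, 0.02 and 0.14. Ppara, the nuclear receptor that drives many of these genes, was the 1 lower, at -0.10 ± 0.023 (SD, n = 4), with all arrays under 0. Its 5 probes averaged -0.237 to -0.056, and each had arrays above 0. Cyp4a14, a fatty acid hydroxylase, read 3.65 on the Cy5 array of mouse 2 and between -0.011 and 0.44 elsewhere. In cholesterol synthesis Hmgcs1, an early enzyme, was higher with mice at 0.049, 0.55, 0.27 and 0.11, and Sc5d, a late one, was lower with mice at -0.14, -0.15, -0.25 and -0.13. Pygl, which releases glucose from liver glycogen, had a narrow spread, with mice at -0.15, -0.12, -0.16 and -0.17 and all 8 arrays under 0. Its probes averaged -0.1 and -0.203 and spread more widely, the first from -0.608 to 0.243, and both had arrays above 0. Conjugation enzymes had a median of -0.043 (19 genes, 1 lower at an unadjusted p under 0.05) and genes known to be higher in male liver -0.036 (11 genes, 1 lower).

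Of the large complexes, ribosomal and respiratory chain proteins lay under 0 more often than features at large. Of cytosolic ribosomal proteins 50 of 63 lay under 0, with a median of -0.062. At an unadjusted p under 0.05, 7 were lower and 1 higher (3.74% and 1.97% over all features). Rps9, of the small subunit, lay at -0.26 ± 0.099 (SD, n = 4) with probes that averaged -0.13 and -0.304, and Rpl23, of the large subunit, at -0.32 ± 0.18 (SD, n = 4). The higher gene was Rpl19. Of oxidative phosphorylation genes 52 of 69 lay under 0, with a median of -0.053 and 2 lower and 0 higher, led by Ndufa6, of complex I, at -0.21 ± 0.14 (SD, n = 4). The proteasome, with 21 of 38 under 0, had a median of -0.002, and 4 lower and 0 higher, among them Psme3, an activator subunit, at -0.19 ± 0.06 (SD, n = 4). Hspe1, the mitochondrial co-chaperonin, led the chaperones, with log2 ratios of -0.22 and -0.21 in mouse 1, -0.21 and -0.091 in mouse 2, -0.14 and -0.30 in mouse 3 and -0.21 and -0.15 in mouse 4. Its arrays lay between -0.30 and -0.091, with a mean of -0.19 ± 0.031 (SD, n = 4), while the chaperone list of 26 had a median of -0.028 and 3 lower and 0 higher. With the Cy3 arrays turned, the medians of ribosomal and respiratory chain genes were -0.008 and -0.012.

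**Figure D2:**
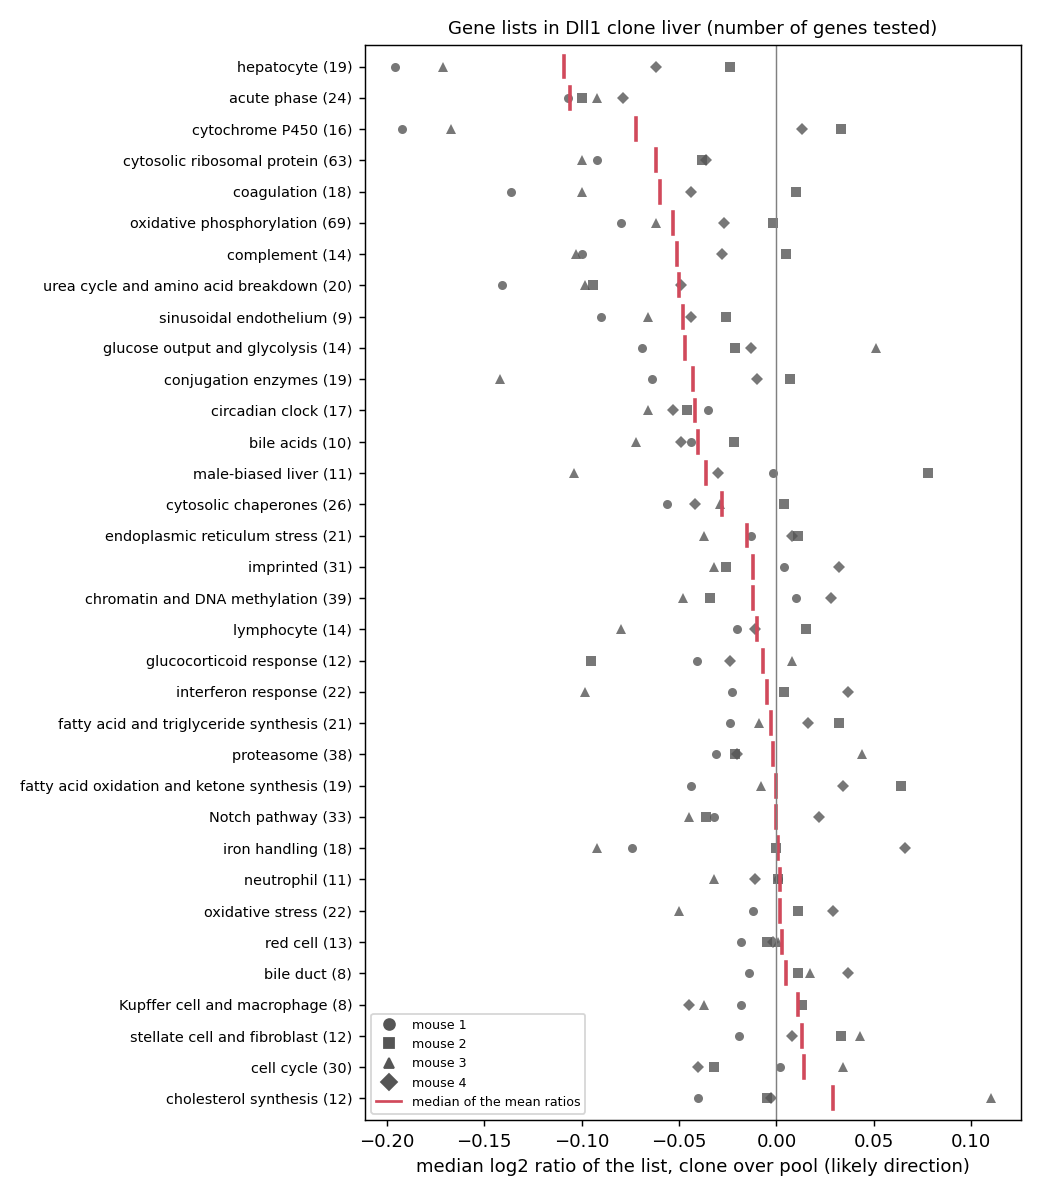
Median log2 ratio (x axis) of each of 34 gene lists in Dll1 clone liver, with the number of genes tested in brackets, grey symbols for the median in each of the 4 mice and red bars for the median of the mean ratios. Hepatocyte and acute phase genes are lowest, with all 4 mice under 0, and in the cytochrome P450 list mice 2 and 4 lie above 0.

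Markers of other liver and blood cells had list medians near the pool's level, except those of sinusoidal endothelium, of which 7 of 9 lay under 0. Medians of the endothelial list in mice 1 to 4 were -0.09, -0.026, -0.066 and -0.044. By orientation they had opposite signs, 0.042 with the clone in Cy5 and -0.094 with it in Cy3, and the turned reading gave 0.058. The means of its genes ran from -0.148 to 0.121. In it 1 gene was lower and 0 higher at an unadjusted p under 0.05 (3.74% and 1.97% over all features). The medians were 0.011 for 8 genes of Kupffer cells and macrophages, -0.048 for 9 of sinusoidal endothelium, 0.013 for 12 of stellate cells and fibroblasts, 0.005 for 8 of bile duct, 0.003 for 13 of red cells, -0.01 for 14 of lymphocytes and 0.002 for 11 of neutrophils. The medians of these lists by mouse lay between -0.09 and 0.043. Clec4f, which marks Kupffer cells, lay at -0.041 ± 0.037 (SD, n = 4), Krt19, a bile duct keratin, at -0.036 ± 0.031 (SD, n = 4) and Col1a1, collagen I, at -0.015 ± 0.037 (SD, n = 4). Kdr, the VEGF receptor of endothelium, was under 0 in 4 of 4 mice, at -0.15 ± 0.092 (SD, n = 4). Timp1, a protease inhibitor, lay at -0.18 ± 0.11 (SD, n = 4) and Col3a1, collagen III, at 0.26 ± 0.22 (SD, n = 4). Of lymphocyte genes, Cd74, the invariant chain, lay at -0.13 ± 0.051 (SD, n = 4), with 3 probes that averaged 0.063, -0.029 and -0.421, and Cd2, a T cell adhesion molecule, at -0.12 ± 0.053 (SD, n = 4). In neutrophils S100a8, a calcium-binding protein, lay at 0.15 ± 0.086 (SD, n = 4) and Lcn2, an iron carrier also made by stressed hepatocytes, at -0.13 ± 0.087 (SD, n = 4). The part of other cell types in the hepatocyte values was not tested.

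Hba-a1, the haemoglobin alpha chain, had the smallest p of the red cell genes. Its 6 probes averaged -0.45 to -0.21, all under 0. The gene's log2 ratios were -0.34 and -0.23 in mouse 1, -0.90 and -0.27 in mouse 2, -0.38 and -0.21 in mouse 3 and -0.32 and 0.042 in mouse 4. All arrays but the Cy3 array of mouse 4 were low, and the Cy5 array of mouse 2 the lowest, with a mean of -0.33 ± 0.19 (SD, n = 4). In wildtype clones the gene lay at -0.56 ± 0.14 (SD, n = 4), and in the spleens of the Dll1 clones at -1.06 ± 0.86 (SD, n = 4). Of the 13 red cell genes in liver 6 lay under 0. Hba-a1 was the 1 that was lower at an unadjusted p under 0.05, as were 3.74% of all features.

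Genes read for incomplete reprogramming had list medians near the pool's level. Of imprinted genes, which are expressed from 1 parental copy, 17 of 31 lay under 0, with a median of -0.012 and 2 lower and 1 higher at an unadjusted p under 0.05. Phlda2, a growth regulator of the placenta, lay at -0.21 ± 0.12 (SD, n = 4), Ascl2, a transcription factor, at -0.18 ± 0.10 (SD, n = 4) and Ppp1r9a, a neuronal scaffold, at 0.14 ± 0.12 (SD, n = 4). Of chromatin and DNA methylation genes 25 of 39 (64.1%) lay under 0, with a median of -0.012 and 5 lower and 0 higher. The shares over all features were 51.9% under 0, 3.74% lower and 1.97% higher, so this list held more lower genes than features at large. Its median depended on the orientation, at 0.009 with the clone in Cy5 and -0.06 with it in Cy3, and was 0.045 on the turned reading. In mice 1 to 4 the list's medians were 0.01, -0.034, -0.048 and 0.028. H3f3a, which encodes histone H3.3, gave -0.93 and -0.064 in mouse 1, -0.77 and -0.87 in mouse 2, -0.21 and -0.57 in mouse 3 and -0.16 and 0.008 in mouse 4. Mouse 2 was low on both arrays, and mouse 4 lay near 0, with a mean of -0.45 ± 0.31 (SD, n = 4). In wildtype clone liver H3f3a lay at -0.75 ± 0.30 (SD, n = 4). In the spleens of Dll1 clones 1 to 4 it lay at -2.34, -1.26, 0.005 and -0.66, close to Hba-a1 at -2.22, -1.13, -0.23 and -0.66. Both were also lowest in mouse 2 and highest in mouse 4 in Dll1 clone liver, but their order differed in wildtype clone liver. Why these rows ran alike was not tested. Kdm1a, a histone demethylase, had 3 mice at -0.29, -0.14 and -0.61, and Smarcb1, of the SWI/SNF complex, 4 at -0.094, -0.034, -0.27 and -0.34.

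The remaining lists had medians between -0.042 and 0.014. They were those of the circadian clock (17 genes), glucocorticoid response (12), interferon response (22), iron handling (18), oxidative stress (22), endoplasmic reticulum stress (21) and cell cycle (30). None of their genes passed after adjustment. In the glucocorticoid list 3 of 12 genes were lower and 0 higher at an unadjusted p under 0.05 (3.74% and 1.97% over all features). Tat and Lcn2 were among the lower ones. Of the circadian clock genes 12 of 17 lay under 0, with 1 lower and 0 higher, and the medians in mice 1 to 4 were -0.035, -0.046, -0.066 and -0.053. In the interferon list Dhx58 and Tap1, a peptide transporter of antigen presentation at -0.26 ± 0.13 (SD, n = 4), were the 2 of 22 genes that were lower at an unadjusted p under 0.05, and 1 was higher. Tap1 too lay close to Hba-a1 in the spleens of Dll1 clones 1 to 4, at -2.25, -1.135, -0.27 and -0.52.

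Whether the 4 clones differed among themselves was tested by fitting mouse and dye to the single arrays, so that the 2 arrays of a mouse are its repeat measurement. After adjustment 0 of 16732 features (0%) passed by limma, with a smallest adjusted p of 0.500, and 1005 (6.01%) had an unadjusted p under 0.05. With the Cy3 arrays turned the latter count was 327. The count as deposited is the larger here, whereas in the test against the pool the turned reading had the larger counts.

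Hamp encodes hepcidin, the liver hormone that limits iron uptake. Its log2 ratios were -0.12 and -0.053 in mouse 1, -0.18 and -0.086 in mouse 2, -0.89 and -1.04 in mouse 3 and 0.21 and 0.57 in mouse 4. Mouse 3 was low on both arrays and mouse 4 high on both, while mice 1 and 2 stayed near the pool. The unadjusted p was 0.000359 and the adjusted p 0.771. Slc27a5, a transporter and CoA ligase of bile acids, gave -0.48 and -0.28 in mouse 1, 0.54 and 0.19 in mouse 2, 0.53 and 0.74 in mouse 3 and -0.91 and -0.53 in mouse 4. Mice 2 and 3 were high and mice 1 and 4 low, in both orientations. Cd86, a costimulatory molecule of antigen-presenting cells, gave -0.11 and -0.31 in mouse 1, 0.14 and 0.15 in mouse 2, -0.39 and -0.32 in mouse 3 and 2.14 and 1.15 in mouse 4. Mouse 4 was high on both arrays, and the means of the other 3 mice lay between -0.35 and 0.15.

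Rnf103, a ubiquitin ligase, lay at -0.068, 0.28, -0.53 and 0.38 in mice 1 to 4, Pcdh18, a protocadherin, at -0.74, -0.23, -0.26 and 0.22 and Cd5, a T cell receptor modulator, at -0.30, 0.47, -0.41 and -0.034. Dusp2, a phosphatase of MAP kinases, lay at 0.008, -0.23, 0.53 and -0.13 and Ahsa1, an activator of HSP90, at -0.56, 0.18, -0.57 and -0.23. Their unadjusted p-values were all under 0.05 and none passed after adjustment. In some genes the difference came with a probe that was measured on only some arrays. Aldh1a1, which makes retinoic acid, had gene values of 0.18, -0.88, 0.32 and 0.39, but the probe measured on all 8 arrays gave 0.084, 0.17, 0.071 and 0.23. Its other probe gave -2.20 and -1.66 in mouse 2 and 0.49, 0.96 and 0.89 on the Cy3 arrays of mice 1, 3 and 4, with no value on their Cy5 arrays. Ccdc60 and Moap1 likewise lost their small p when only such complete probes were used (unadjusted p = 0.763 and 0.0711). For Tollip, an adaptor of immune signalling, the complete probe gave 0.98, 0.26, -0.56 and 0.76 with an unadjusted p of 1.65e-05 and an adjusted p of 0.276.

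**Figure D3:**
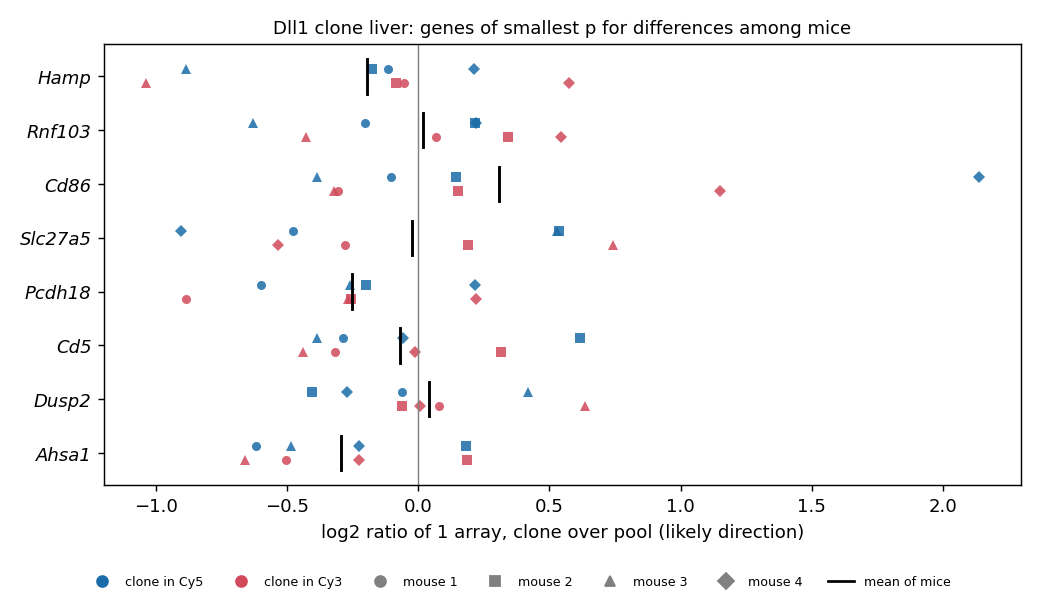
Log2 ratio (likely clone over pool, x axis) of 8 genes on each of the 8 arrays, blue with the clone in Cy5 and red with it in Cy3, symbols by mouse, black bars for the mean of the 4 mice. For Cd86 both arrays of mouse 4, at 2.14 and 1.15, lie above all others.

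The 2 dye orientations were then set against each other. Over 16732 features the mean ratios of the Cy5 and the Cy3 arrays correlated at -0.371. In the fit of mouse and dye 45 features (0.269%) differed between orientations after adjustment by limma, 0 higher with the clone in Cy5 and 45 higher with it in Cy3, and 3931 (23.5%) did so at an unadjusted p under 0.05. Leaving out any 1 of the 4 mice left 0 after adjustment. Gimap6, a GTPase of lymphocytes, averaged -0.44 in Cy5 and 0.65 in Cy3, Prm1, a sperm protamine, -0.49 and 1.03, Spcs1, a signal peptidase subunit, -0.88 and 0.78 and Acsm3, a liver acyl-CoA synthetase, -0.80 and 0.84. Of the 45 features 19 had a gene name. On the turned reading, where these opposite values add up, 19 features passed, all lower, and each was among the 45. They included Gimap6 at -0.54 ± 0.036, Spcs1 at -0.83 ± 0.067 and Vcp, an ATPase of protein turnover, at -0.48 ± 0.045 (SE, adjusted p = 0.0335, 0.0361 and 0.0384 by limma). Of the hepatocyte and acute phase genes 0 were among them, beside 0.112% of all features. With so small a share this count is uninformative, and values alike in both orientations cancel on the turned reading. Over 16998 features the difference of the orientations correlated with that in the spleens of the same mice at 0.401, with that in wildtype clone spleen at 0.484 and with that in wildtype clone liver at 0.039. Features share arrays and probes, so these correlations describe the arrays.

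**Figure D4:**
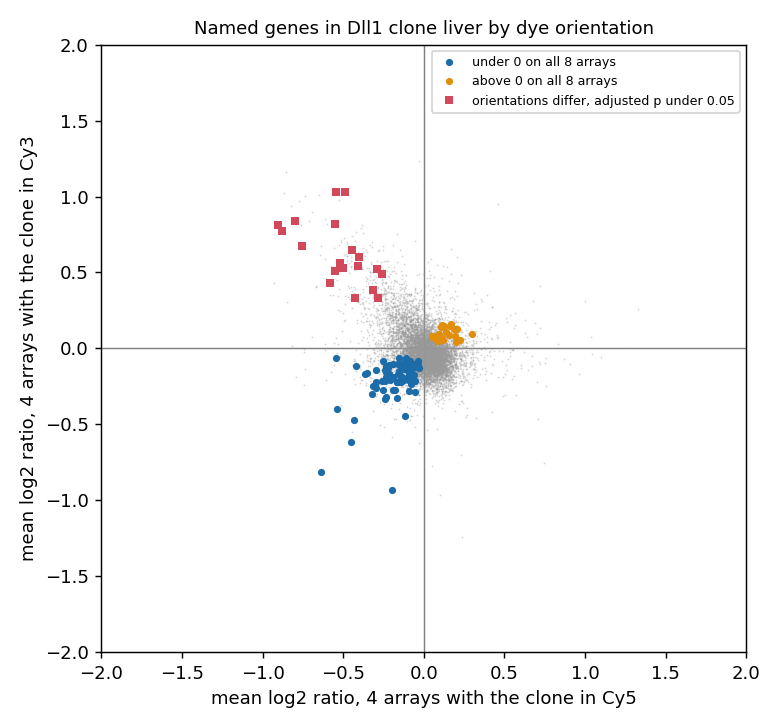
Mean log2 ratio of the 4 arrays with the clone in Cy5 (x axis) and of the 4 with the clone in Cy3 (y axis) for 8869 named genes in Dll1 clone liver. The cloud runs from upper left to lower right, the 90 genes under 0 on all arrays (blue) and the 23 above 0 (orange) lie across it, and the 19 named genes whose orientations differ after adjustment (red) lie at the upper left.

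Whether the livers of Dll1 clones differed from those of wildtype clones was tested on the ratios to their own pools. A difference between the pools would enter these values too and was not tested. After adjustment 0 of 16901 features (0%) passed by limma, with a smallest adjusted p of 0.934. At an unadjusted p under 0.05, 525 (3.11%) were lower and 303 (1.79%) higher in Dll1 clones. The result depended on the orientations: on the Cy5 arrays alone 3076 features (18.2%) passed after adjustment, on the Cy3 arrays alone 3871 (22.8%), and on the turned reading 7022 (41.5%). Of the 1685 features that passed on both, 1685 had opposite signs, so that they cancel in the mean of a mouse.

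Lce1i, a gene of the skin barrier, was the named gene of smallest p among those lower in Dll1 clones, at -0.17 against 0.05 in wildtype clones. P4ha2, a collagen prolyl hydroxylase, lay at -0.14 against 0.12 and Tsfm, a mitochondrial translation factor, at -0.15 against 0.12. On the side of higher values stood Renbp at 0.21 against -0.12, Slc25a3, the mitochondrial phosphate carrier, at 0.27 against -0.44 and Fgf2, a growth factor, at 0.17 against -0.15. None of these differences passed after adjustment on the means of both orientations. On the Cy3 arrays alone P4ha2 differed by -0.83 and Tsfm by -0.40 (adjusted p = 0.00532 and 0.0279 by limma), while on the Cy5 arrays alone P4ha2 differed by 0.31 and Tsfm by -0.14 (adjusted p = 0.0397 and 0.342). On the turned reading the differences of P4ha2, Tsfm, Lce1i, Renbp and Slc25a3 change sign.

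The liver lists lay under 0 in both genotypes. Hepatocyte genes had a median of -0.18 in wildtype clones, with 19 of 19 under 0, beside -0.11 in Dll1 clones. At an unadjusted p under 0.05 the ratio in Dll1 clones minus that in wildtype clones was lower in 0 and higher in 2 of the 19. The shares of that difference over all features were 3.11% lower and 1.79% higher. Acute phase genes had -0.10 in wildtype clones, with 21 of 24 under 0, and 0 of 24 were lower and 2 higher in the difference. The medians of ribosomal proteins were -0.062 and -0.055 in Dll1 and wildtype clones, and those of respiratory chain genes -0.053 and -0.047. The values of Alb were -0.035 in Dll1 clones and -0.33 in wildtype clones (0.29 ± 0.12, SE, unadjusted p = 0.0354, adjusted p = 0.934 by limma).

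In the spleens of the same 4 mice the ratios spread more widely. The difference between liver and spleen, taken within each mouse, passed after adjustment in 0 of 15832 features (0%), with a smallest adjusted p of 0.800 by limma. At an unadjusted p under 0.05, 390 (2.46%) were lower and 420 (2.65%) higher in liver. H2-Eb1, an MHC class II chain, had a mean of 0.11 in liver and 1.34 in spleen, and Rims3, a synaptic protein, of -0.054 and 1.09. Among the higher genes were Mat2b, of methionine metabolism, at 0.021 and -1.26, Commd1, a copper regulator, at 0.15 and -1.47, and S100a9, of neutrophils, at 0.012 and -0.82. The neutrophil and red cell lists had medians of -0.36 and -0.59 in spleen beside 0.002 and 0.003 in liver. Acute phase genes had a median of -0.13 in spleen, with 15 of 23 under 0, so their lower values were not particular to liver. Hepatocyte genes had -0.035 in spleen, with 10 of 19 under 0. Fgl1 was measured in 3 spleens, at -0.18 ± 0.95 (SD, n = 3).

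**Figure D5:**
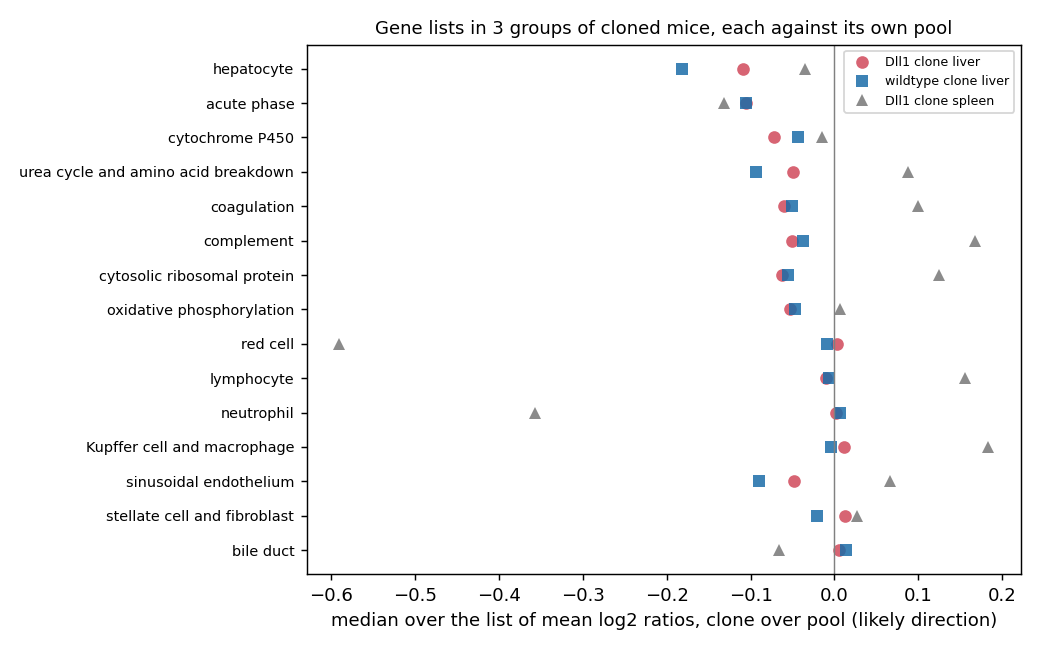
Median over 15 gene lists (y axis) of the mean log2 ratios (x axis) in Dll1 clone liver (circles), wildtype clone liver (squares) and Dll1 clone spleen (triangles), each against its own pool. Hepatocyte and acute phase genes lie under 0 in both livers. In spleen the acute phase list lies under 0 as well, at -0.13, and the hepatocyte list at -0.035. The red cell list lies at -0.59 in spleen and near 0 in both livers.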

How the data were processed

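Ratios came from 2-colour arrays of liver RNA, isolated on RNeasy columns, per the labels' protocols. The authors deposited 1 table of log2 ratios of 20794 rows and 32 arrays, with its log base read from the values. How they were normalized is not stated by any source read. Here values over 9 in size, which are constants for spots without a ratio (188 on these 8 arrays), were set to missing. Row n was named by probe n minus 11 of the platform table, a shift found earlier from these values, which gave 12760 named rows, 9026 genes and 8034 unnamed rows. Rows of a gene were averaged, then the 2 arrays of a mouse as deposited, and a feature needed 3 mice. The mean of the mice was tested against 0 with limma 3.58.1 in R 4.3.3 (lmFit, eBayes, Benjamini-Hochberg), each comparison fitted on its own groups. Differences among mice and between dyes came from a fit of both to single arrays. The scripts were tested on simulated data. Members and gene lists were chosen with earlier results of these data known. Named genes are Dll1, those of smallest p in each direction with 1 sign in all mice, the leading and defining genes of each list, and those of largest size with 1 sign on all arrays. Of the 165 genes of that rule the text names a part, chosen after their values were seen.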

Additional observations from a re-analysis of the deposited data

Results flagged for a closer look

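In 6 of the 92 named genes that were measured in all 4 mice, 1 mouse stood apart by Dixon's criterion for 4 values, and chance flags about 5% of groups. Dll1 lay at -0.51 in mouse 3, against 0.021 to 0.10 in the others. Orm1 lay at -0.92 in mouse 1, against -0.37 to -0.26 in the others. Sc5d lay at -0.25 in mouse 3, against -0.15 to -0.13. Cyp4f13, a cytochrome P450, lay at -0.012 in mouse 2, against -0.21 to -0.18. Aldh1a1 lay at -0.88 in mouse 2, against 0.18 to 0.39, and a probe measured on 5 of the 8 arrays held the low values. Spata17 lay at 0.21 in mouse 1, against 0.12 to 0.14.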

How the results depend on the processing

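The depth limit here is the number of arrays, since signal over background was not analysed here. The count of 0 features against the pool stayed 0 after centring, scaling, keeping the constants, single probes, needing all 4 mice, 1 orientation alone, robust variances, both livers or all groups in 1 fit, complete probe rows and leaving out each mouse. With single arrays, the mouse as replicate block and a dye term it was 0 as well, with a smallest adjusted p of 0.0904, 1140 features at an unadjusted p under 0.05 and a correlation within mice of 0.106. The replicate numbers of the titles count arrays and pair no groups. With the Cy3 arrays turned 19 features passed. Of unadjusted calls 65.4% were lower as deposited, 52.7% after centring, 51.5% after scaling as well, 54.8% without mouse 3 and 54.5% without mouse 4. With all 4 groups in 1 fit the unadjusted count fell to 65 lower and 30 higher, and with both liver groups it was 954 and 626. For the difference from wildtype clones the split of 63.4% became 50.1% after scaling.

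The 45 features that differed between orientations became 396 after scaling and 115 with single probes, and 0 without any 1 mouse (lowest and highest 0). The 0 features of the difference from wildtype clones became 7022 when turned, 3076 on the Cy5 arrays and 3871 on the Cy3 arrays. The 161 features lower on all 8 arrays became 564 when turned, and the 50 features higher on all 8 arrays became 647. Without mice 1 to 4 in turn only 6 arrays remain, over which the counts can only be larger, at 386, 401, 358 and 481 lower and 158, 229, 220 and 206 higher. For 8 arrays, complete probe rows, centring and scaling kept both within 1.5 times, and these alternatives and the complete probe rows were added after the data were seen. List medians stayed within the SD of their mouse medians in 237 of 306 comparisons. With names by row number as given, the medians of hepatocyte and acute phase genes were -0.007 and -0.016.

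Directions that reversed were mostly those of the turned reading, which takes the difference of the orientations. Against the pool the log2 values were then Fgl1 0.018, Fbxo41 0.082, Dact1 0.062, Timm8b 0.011, Casp9 0.41, Gng13 0.082, Cth 0.12, Dll3 -0.27, Rpl19 -0.59, Thyn1 -0.24, Ran -0.45, Renbp -0.14, Arg1 0.048, Tat 0.044, Clec4f 0.16, Col3a1 -0.083, Cd74 0.005, Cd2 0.10, S100a8 -0.12, Fga 0.048, F2 0.009, Pygl 0.045, Acaa1b -0.084, Sc5d 0.12, Cyp4f14 0.039, Alas1 0.37, Ncstn 0.002, Phlda2 0.088, Ascl2 0.073, Ppp1r9a -0.22, Kdm1a 0.094, Smarcb1 0.03, Ndufa6 0.15, Psme3 0.02, Krt19 0.099, Col1a1 0.061 and Ptges 0.088. Against wildtype clones they were Lce1i 0.028, P4ha2 0.57, Tsfm 0.13, Renbp -0.11, Slc25a3 -0.33 and Efnb3 -0.21, and against spleen H2-Eb1 0.16 and S100a9 -0.035. On the Cy5 arrays alone the reversed values were Casp9 0.054, Ran -0.26, Clec4f 0.12, Ppp1r9a -0.082, Krt19 0.063 and Col1a1 0.046 against the pool and P4ha2 0.31 against wildtype clones, and on the Cy3 arrays alone Dll1 0.05. With the constants kept Sumo3 1.65 and Lcn2 1.93 reversed. Leaving out mouse 1 gave Alb 0.034 and Col1a1 0.001, and leaving out mouse 3 gave Dll1 0.07. On the Cy3 arrays alone P4ha2 and Tsfm passed against wildtype clones, at -0.83 and -0.40. The cause of these changes was not tested.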
